A study of Mus musculus with 17 samples.

Results

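The interferon-inducible GTPases examined here are 10 mouse genes of related families. They are the immunity-related GTPases Tgtp1, Tgtp2, Igtp, Irgm1, Irgm2 and Iigp1, and the guanylate-binding proteins Gbp2, Gbp3, Gbp6 and Gbp7. The members are a list of named genes from these families, not every gene of them, and other family genes are described separately. All 10 were found by symbol among the 56748 genes of the count table and were among the 15196 genes with enough counts to test. RNA was sequenced from E11 cells, an established mouse line of podocytes, the epithelial cells that cover the glomerular capillaries of the kidney. The cells were grown on the silicone polydimethylsiloxane in 3 forms: with no topography (NT, 5 libraries), with round topography (RT, 6 libraries) and with a high fractal topography that imitates tracings of healthy glomeruli (HF, 6 libraries). NT is the flat control and RT the textured but non-fractal control of HF. All 3 groups are the same untreated line on the same material, so they share 1 genetic source. Nothing in the labels says that replicates were separate cultures, so every p-value reflects library-to-library variation that could be purely technical.

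These GTPases are part of the cell-autonomous defence that interferon switches on in most cell types, epithelia included. Interferon gamma acts on its targets through a promoter element called the gamma-activated sequence (GAS), and type I interferon through the interferon-stimulated response element (ISRE). Of the immunity-related GTPases, Tgtp1, Tgtp2 and Iigp1 are effectors that load onto the vacuoles of intracellular parasites. Irgm1, Irgm2 and Igtp are regulators that sit on the cell's own membranes and hold the effectors inactive there. Guanylate-binding proteins are larger GTPases that assemble into coats on vacuoles and bacteria.

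All 10 members had lower fitted means on both textured surfaces than on the flat one, and none passed the test between the fractal and the round surface. Tgtp1 changed most among the members that passed the test: it averaged 62.0 ± 6.65 CPM (counts scaled by library size; SD, n = 5) on NT, 39.8 ± 2.99 (n = 6) on RT and 43.1 ± 2.57 (n = 6) on HF. Tgtp1, Tgtp2, Irgm1 and Irgm2 fell in both comparisons with NT, and Gbp7 fell in the comparison of RT with NT. Sequence that the members carry and share is shown first, because it decides which counts can be assigned to 1 gene.

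Tgtp1 and Tgtp2 are near-copies on chromosome 11. Their coding sequences, each of 1245 bases in GENCODE M21, were 99.7% identical and differed at 4 positions, counted from 1 at the first coding base with the Tgtp1 base first: G270C, C408T, C729T and C735A. The stretch from base 704 to base 743 is shown because it holds a pair of these differences, which are in capitals.

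Tgtp1: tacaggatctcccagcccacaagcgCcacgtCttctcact
Tgtp2: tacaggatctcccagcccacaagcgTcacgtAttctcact

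Of all stretches of 150 bases in the longest Tgtp1 transcript, 74.1% also occurred in another gene, nearly all of them in Tgtp2, and for Tgtp2 the share was 71.7%. A read from such a stretch cannot be placed in 1 of the copies by its sequence, and how reads with several placements were counted is not given in the sources used here. Tgtp1 and Tgtp2 are therefore given singly and as a sum. For Gbp6 the share was 43.4%, with Gbp10 and Gm43302, and for Gbp7 it was 8.93%, with Gm43802. It was 0.854% for Igtp, with Irgm2, and 0 for Irgm1, Irgm2, Iigp1, Gbp2 and Gbp3. Some members overlap other genes on the same strand. For Gbp6, 29.0% of the exonic bases lie within Gm43302, for Gbp7 11.35% within Gm43802, and for Tgtp1 6.96% within Gm12185. Igtp and Irgm2 overlap each other on the same strand over 162 exonic bases (8.01% of Igtp and 4.39% of Irgm2). The 24 bases that Gbp2 shares with Mir6381 lie on opposite strands, which the libraries do not mark. Values for Tgtp1, Tgtp2, Igtp, Irgm2, Gbp2, Gbp6 and Gbp7 are uncertain to that extent, which for Gbp2 is 0.954% of its exonic bases.

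Upstream sequence is shown because members that move together can be compared for the elements through which interferon acts. RefSeq windows for GRCm38.p6 were searched for 8 of the 10 members. Gbp6 and Iigp1 were not searched, so the counts of matches below do not cover them. The 80 bases around the matches are printed on the gene's strand with each match in capitals. The patterns searched, on both strands of the 250 bases before the transcript start, were TTCNNNGAA for GAS and GAAANNGAAA for ISRE. The positions are those of the printed sequence, since the counts themselves were made on GRCm39. The first group holds a GAS match followed, after 2 bases, by an ISRE match on the same strand.

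Tgtp1 (chr11:48992285-48992364, minus strand): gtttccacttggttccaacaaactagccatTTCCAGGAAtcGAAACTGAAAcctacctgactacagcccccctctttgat
Tgtp2 (chr11:49064244-49064323, minus strand): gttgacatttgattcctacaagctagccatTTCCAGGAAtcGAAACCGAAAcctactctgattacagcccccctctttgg
Igtp (chr11:58199476-58199555, plus strand): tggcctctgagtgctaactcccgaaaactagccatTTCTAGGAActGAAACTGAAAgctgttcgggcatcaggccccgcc
Irgm2 (chr11:58214872-58214951, plus strand): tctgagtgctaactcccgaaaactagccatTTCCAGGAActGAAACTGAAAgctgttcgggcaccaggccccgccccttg

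The second group holds ISRE matches without that arrangement. Capitals in Gbp7, Gbp3 and Gbp2 include ISRE matches read on the opposite strand.

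Irgm1 (chr11:48871421-48871500, minus strand): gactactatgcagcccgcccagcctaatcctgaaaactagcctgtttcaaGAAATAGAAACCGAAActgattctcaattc
Gbp7 (chr3:142530221-142530300, plus strand): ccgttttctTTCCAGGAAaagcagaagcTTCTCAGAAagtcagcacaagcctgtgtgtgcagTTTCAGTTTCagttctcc
Gbp3 (chr3:142559964-142560043, plus strand): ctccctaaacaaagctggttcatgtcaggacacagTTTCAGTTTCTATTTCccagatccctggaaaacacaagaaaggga
Gbp2 (chr3:142620569-142620648, plus strand): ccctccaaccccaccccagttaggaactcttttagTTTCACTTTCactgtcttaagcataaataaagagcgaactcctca

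Counted by gene, with a match in any of its entries, ISRE was found upstream of 8 of 8 searched members. Over all genes it was 3.46% of 27025 genes (2.98% of their 32851 promoters of the same length). A GAS match was found upstream of 5 of 8 (Tgtp1, Tgtp2, Igtp, Irgm2 and Gbp7, the last with 2), against 8.13% of genes (7.02% of promoters). Gbp3 has a second RefSeq entry with neither match. The lists described further below were searched in the same way. Of 9 other GTPase family genes, 4 had ISRE and 3 had GAS. Among 35 type I interferon-stimulated genes these counts were 12 and 4, and among 17 ligand, receptor and signalling genes 3 and 6. Among 16 antigen presentation genes they were 3 and 2, and among 15 autophagy genes and partners 0 and 2. The matches are thus not particular to the members. The spaced arrangement occurred in 5 promoters in all, or 0.0152% of promoters: Tgtp1, Tgtp2, Igtp, Irgm2 and Gm12185, each on chromosome 11. Only the spacing present in the members was counted, and the genes that carry it are related. The share is therefore a description and not a test. The 4 member windows with it share a run of 11 bases, ctagccatttc, which enters the GAS match. The ISRE matches of Irgm1 and of Gbp3 are pairs that overlap each other. Over the 250 bases upstream, aligned end to end, Tgtp1 and Tgtp2 were 62.4% identical and Igtp and Irgm2 65.6%. Other pairs of members reached at most 51.2% (Tgtp2 with Irgm2). Each window ends at the gene's own transcript start, so a shift of that start lowers the identity. The GAS match begins at base -45 in Igtp and -75 in Irgm2, and at -88 in Tgtp1 and -81 in Tgtp2. These identities are therefore not comparable with the coding identity. A match describes letters in these windows and is not a measured binding site.

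**Figure D1:**
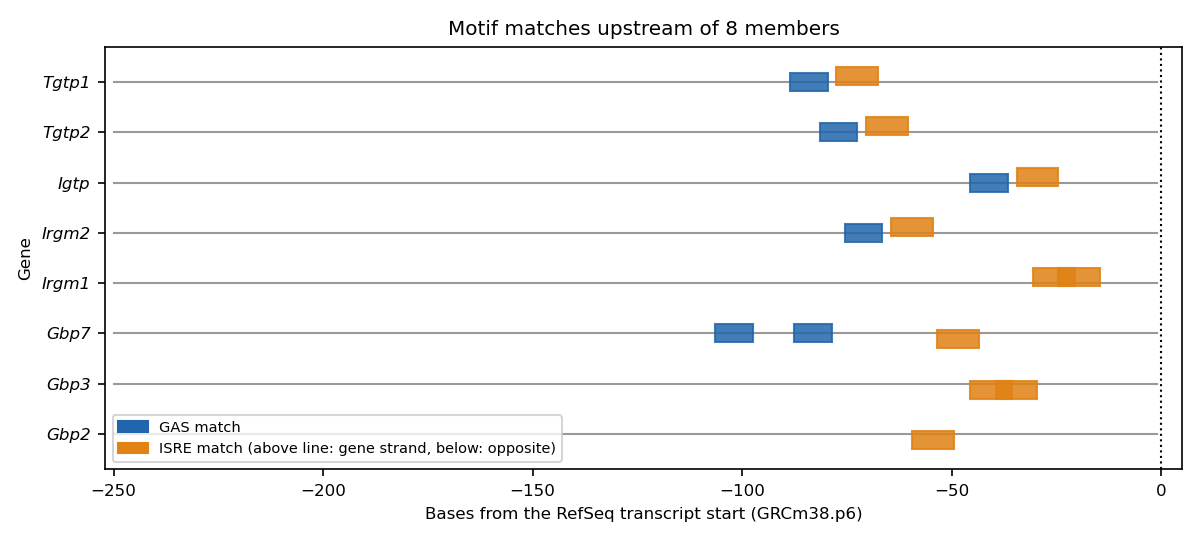
Matches to the GAS pattern (blue) and the ISRE pattern (orange) in the 250 bases before the RefSeq transcript start of 8 members; the horizontal axis is the distance from the start in bases. ISRE boxes above the line are on the gene's strand and those below on the opposite strand. In Tgtp1, Tgtp2, Igtp and Irgm2 the blue box is followed after 2 bases by the orange one.

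Depth was 14913649 to 24072966 counts per library, and the 10 members had between 80 and 3487 counts in a single library, so counting error was small for most of them. Podocyte marker genes summed to 1246 to 1382 CPM on NT, 1318 to 1362 on RT and 1320 to 1363 on HF, and 8 of 10 were high enough to test. Within that list Wt1, a podocyte transcription factor, fell by 0.16 on HF (edgeR adjusted p = 0.0113) and by 0.24 on RT (edgeR adjusted p = 6.16e-05) on the log2 scale, calls made in all 11 fits that left out 1 library. Among immune markers, Adgre1 and Itgam, which define macrophages, and Cd3e, Ncr1 and Klrb1c, which define T and natural killer cells, had 0 counts in every library. The macrophage list as a whole summed to 38.2 to 43.1 CPM on NT, 47.1 to 59.8 on RT and 41.3 to 55.8 on HF, with 6 of its 8 genes under 1 CPM. Csf1r and Cd68 carried the sum, and Csf1r rose on RT by 0.36 on the log2 scale (edgeR adjusted p = 0.00385). The T and natural killer list reached at most 0.247 CPM and the endothelial list, with Kdr at 0, at most 1.29 CPM. The list for mesangial cells, pericytes and fibroblasts summed to 694 to 803 CPM on NT, below its 821 to 894 on RT and 834 to 918 on HF. Its contractile gene Acta2 rose by 0.48 on HF (edgeR adjusted p = 0.0171; lost with only the groups compared in the fit) and by 0.48 on RT (edgeR adjusted p = 0.0121), and both calls were made in all 11 fits that left out 1 library. The proximal tubule list, with Slc34a1 at 0, summed to 1422 to 1780, 1522 to 1714 and 1464 to 1813 CPM. The part of the macrophage and mesangial lists and of Wt1 in the results below was not tested. In bulk RNA, fewer cells that express a gene and less RNA per cell cannot be told apart.

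Levels between genes were compared as mean CPM per kilobase of GENCODE M21 exons, with the exons of all transcripts of a gene merged. The merged length was well above the longest transcript for Iigp1 (5823 against 3121 bases), Irgm1 (5810 against 3832) and Gbp6 (5954 against 4243). It equalled the longest transcript for Igtp, Gbp2 and Gbp7. The order below therefore depends on the length chosen, and an order by longest transcript was not worked out. Levels of Tgtp1, Tgtp2 and Gbp6 also carry the uncertainty of shared sequence given above. On NT, Irgm1 was highest with 27.5 ± 2.34 CPM per kilobase (SD, n = 5), followed by Gbp2 with 22.6 ± 3.75 and Tgtp1 with 19.3 ± 2.08. Igtp (15.2), Irgm2 (14.2), Tgtp2 (12.7), Gbp3 (11.01), Iigp1 (8.25) and Gbp7 (7.46) came next, and Gbp6 was lowest with 1.41 ± 0.24. Each gene's range over the NT libraries overlapped that of its neighbour in this order, except that Gbp6 (1.10 to 1.72) lay below Gbp7 (6.78 to 8.15). On RT and HF the order was the same, apart from Gbp7 standing above Iigp1 on RT.

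**Figure D2:**
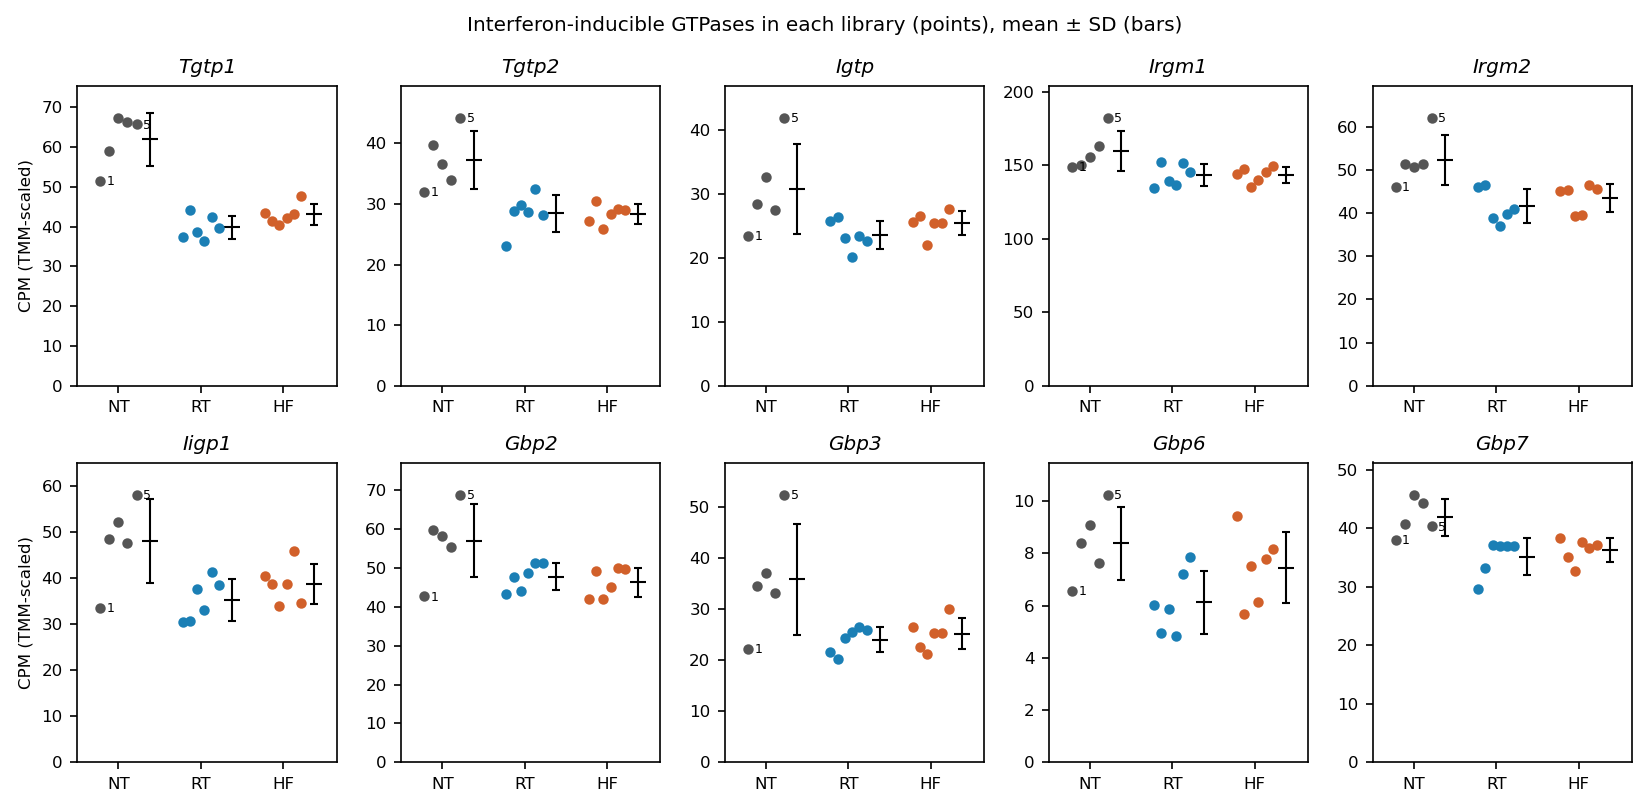
CPM of each member in every library (points, with NT 1 and NT 5 numbered) and the group mean ± SD (bars) on NT (n = 5), RT (n = 6) and HF (n = 6); every axis starts at 0. Tgtp1 on NT, at 51.5 to 67.2 CPM, lies above all 12 libraries of the textured surfaces.

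Of the effectors, Tgtp1 was the clearest. Its NT libraries 1 to 5 stood at 51.5, 59.1, 67.2, 66.3 and 65.6 CPM. On RT the lowest, median and highest were 36.5, 39.1 and 44.3 CPM, and on HF they were 40.4, 42.7 and 47.8 CPM. Every NT library was above every RT and every HF library. Tgtp1 fell by 0.64 ± 0.06 (SE) on the log2 scale on RT (64.2% of the NT level; edgeR quasi-likelihood test with Benjamini-Hochberg adjustment over all tested genes, adjusted p = 1.63e-07). It fell by 0.53 ± 0.06 on HF (69.4% of the NT level; edgeR adjusted p = 6.34e-06). Both calls were made in each of the 11 fits that left out 1 library of the groups compared.

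Tgtp2, the near-copy, stood at 32.01, 39.7, 36.6, 33.9 and 44.1 CPM in NT libraries 1 to 5. Its lowest, median and highest values were 23.1, 28.8 and 32.4 CPM on RT and 25.8, 28.7 and 30.5 CPM on HF. The HF libraries all lay below the NT libraries, whereas the highest RT library passed NT 1. Tgtp2 fell by 0.39 ± 0.07 on HF (76.1% of the NT level; edgeR adjusted p = 0.00265) and by 0.38 ± 0.07 on RT (76.6%; edgeR adjusted p = 0.00189). These calls too were made in each of the 11 fits that left out 1 library. With the counts of Tgtp1 and Tgtp2 added together, the sum fell by 0.48 ± 0.06 on HF (edgeR adjusted p = 2.58e-05) and by 0.54 ± 0.06 on RT (edgeR adjusted p = 4.46e-06), which does not rest on how reads were split between the copies.

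Iigp1, on chromosome 18, is the remaining effector. It stood at 33.5, 48.6, 52.3, 47.8 and 58.2 CPM in NT libraries 1 to 5, so that NT 1 lay well below the other 4. RT ran from 30.5 through a median of 35.5 to 41.4 CPM, and HF from 33.9 through 38.7 to 45.8 CPM. The groups overlapped only through NT 1, which was under most of the textured libraries. The differences were -0.44 ± 0.13 on RT (edgeR adjusted p = 0.0665) and -0.32 ± 0.13 on HF (edgeR adjusted p = 0.251), and neither passed the threshold. Both passed without NT 1 (RT -0.54, HF -0.42), and the RT difference also passed without RT 5 (-0.49).

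Of the regulators, Irgm1 was the most abundant member and moved least. Its NT libraries 1 to 5 stood at 149, 150, 155, 163 and 182 CPM. RT ran from 135 through a median of 142 to 152 CPM, and HF from 135 through 145 to 149 CPM. The lowest NT libraries lay inside both ranges or at their edge. Irgm1 fell by 0.16 ± 0.04 on HF (89.7% of the NT level; edgeR adjusted p = 0.0487) and by 0.16 ± 0.04 on RT (89.6%; edgeR adjusted p = 0.0336). These calls were close to the threshold. The HF call was lost in 8 of 11 fits that left out 1 library (NT 3, 4 or 5, or HF 1, 2, 3, 4 or 5; edgeR adjusted p at most 0.123). The RT call was lost in 7 of 11 (NT 3, 4 or 5, or RT 1, 3, 4 or 6; edgeR adjusted p at most 0.0873). Among the other settings, the HF call was also lost with RLE size factors (edgeR adjusted p = 0.0512), limma voom (adjusted p = 0.0584), only the groups compared in the fit (edgeR adjusted p = 0.0834), NT 1 and NT 5 both left out (0.0818) and only libraries numbered 1 to 5 (0.0554). The RT call was lost in the last 3 of these (edgeR adjusted p = 0.0684, 0.0723 and 0.0520).

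Irgm2 stood at 46.0, 51.3, 50.6, 51.3 and 61.9 CPM in NT libraries 1 to 5. RT ran from 37.0 through a median of 40.3 to 46.5 CPM, and HF from 39.2 through 45.2 to 46.6 CPM. Only NT 1 reached into the ranges of the textured surfaces. Irgm2 fell by 0.34 ± 0.07 on RT (79.3% of the NT level; edgeR adjusted p = 0.00471), a call made in all 11 fits that left out 1 library. It fell by 0.26 ± 0.07 on HF (83.3%; edgeR adjusted p = 0.0399), a call lost in 7 of 11 such fits (NT 2, 3, 4 or 5, or HF 1, 3 or 4; edgeR adjusted p at most 0.104) and with only libraries numbered 1 to 5 (edgeR adjusted p = 0.0617).

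Igtp, which lies next to Irgm2 on chromosome 11, stood at 23.5, 28.5, 32.6, 27.5 and 41.9 CPM in NT libraries 1 to 5. RT ran from 20.2 through a median of 23.3 to 26.4 CPM, and HF from 22.1 through 25.6 to 27.6 CPM. NT 5 alone stood far above the rest, and NT 1 lay within both textured ranges. The differences were -0.39 ± 0.11 on RT (edgeR adjusted p = 0.0588) and -0.28 ± 0.11 on HF (edgeR adjusted p = 0.247). The RT difference passed without NT 1 (-0.47) or without NT 5 (-0.26), and the HF difference passed without NT 1 (-0.36).

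Among the guanylate-binding proteins, which occupy clusters on chromosomes 3 and 5, Gbp7 was the 1 that passed. It stood at 38.1, 40.8, 45.8, 44.3 and 40.4 CPM in NT libraries 1 to 5. RT ran from 29.6 through a median of 37.0 to 37.2 CPM, all below NT, while HF ran from 32.7 through 36.8 to 38.4 CPM and met NT 1. Gbp7 fell by 0.25 ± 0.06 on RT (84.2% of the NT level; edgeR adjusted p = 0.0106). That call was lost without NT 3 (edgeR adjusted p = 0.0564). Its difference on HF was -0.21 ± 0.06 (edgeR adjusted p = 0.0517) and passed without NT 1 or without NT 5. Other settings were divided. It passed with upper quartile scaling (edgeR adjusted p = 0.0446), DESeq2 (adjusted p = 0.0350), no filter, the replicate number as a block, and NT 1 and NT 5 both left out. It did not pass with RLE size factors (edgeR adjusted p = 0.0540), limma voom (adjusted p = 0.0575), only the groups compared, Tgtp1 and Tgtp2 summed, or libraries numbered 1 to 5.

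Gbp3 had the widest spread on NT, at 22.3, 34.5, 37.1, 33.2 and 52.5 CPM in libraries 1 to 5. RT ran from 20.3 through a median of 25.0 to 26.5 CPM, and HF from 21.3 through 25.4 to 30.0 CPM. NT libraries 2 to 5 lay above every textured library, and NT 1 lay near the bottom of them. The differences, -0.57 ± 0.16 on RT (edgeR adjusted p = 0.0665) and -0.51 ± 0.16 on HF (edgeR adjusted p = 0.136), were slightly smaller than those of Tgtp1 and carried SEs over 2 times wider. Both passed without NT 1 (RT -0.70, HF -0.64).

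Gbp2 stood at 42.6, 59.6, 58.2, 55.4 and 68.8 CPM in NT libraries 1 to 5, again with NT 1 lowest. RT ran from 43.2 through a median of 48.0 to 51.3 CPM and HF from 42.0 through 47.1 to 49.9 CPM. The differences were -0.25 ± 0.09 on RT (edgeR adjusted p = 0.148) and -0.30 ± 0.09 on HF (edgeR adjusted p = 0.110), and both passed without NT 1 (RT -0.34, HF -0.38). Gbp6, the least abundant member, stood at 6.55, 8.40, 9.07, 7.65 and 10.2 CPM on NT. It ran from 4.82 through a median of 5.95 to 7.87 CPM on RT and from 5.69 through 7.65 to 9.42 CPM on HF, so that all 3 groups overlapped. Its differences were -0.44 ± 0.14 on RT (edgeR adjusted p = 0.0651) and -0.17 ± 0.14 on HF (edgeR adjusted p = 0.622). The RT difference passed without NT 1, without RT 5 or without RT 6.

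**Figure D3:**
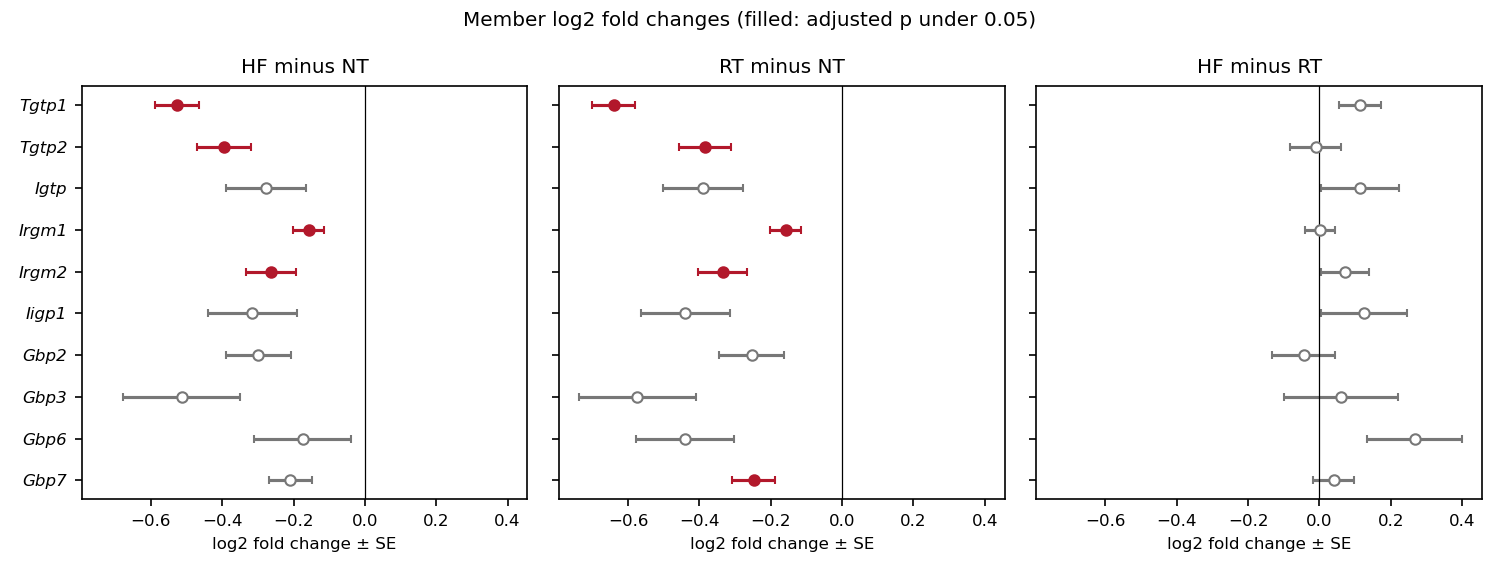
Log2 fold change ± SE of each member in the 3 comparisons, from the edgeR fit of all 17 libraries; filled points have an adjusted p under 0.05. All 10 points lie left of 0 in both comparisons with NT, and in HF minus RT none is filled.

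Counted over the members, 4 of 10 fell and 0 rose between HF and NT, where 2.33% of all tested genes passed, 0.829% fell and 1.5% rose. Between RT and NT 5 of 10 fell and 0 rose, where 3.97% of all tested genes passed, 1.44% fell and 2.53% rose. At an unadjusted p under 0.05 the counts were 9 of 10 (14.2% of all tested genes) and 10 of 10 (17.1%). The fold changes were below 0 for 10 of 10 members in both comparisons, against 51% of all tested genes for HF and 50.9% for RT. Their median was -0.29 for HF and -0.39 for RT, against -0.0025 and -0.0021 for all tested genes. Members lying wholly below NT numbered 2 on HF (Tgtp1 and Tgtp2; 0.934% of tested genes) and 2 on RT (Tgtp1 and Gbp7; 1.22%). The HF and RT comparisons use the same 5 NT libraries, so a low or high NT library moves both. By family, 4 of 6 immunity-related GTPases fell in either comparison, and among the guanylate-binding proteins 0 of 4 fell on HF and 1 of 4 on RT. Their median fold changes were closer than these counts. Immunity-related GTPases had -0.30 on HF and -0.39 on RT, and guanylate-binding proteins -0.25 and -0.35. The counts moved with single libraries: without NT 1 they were 9 of 10 for HF and 10 of 10 for RT, the exception being Gbp6 on HF. Calls over all tested genes moved too when 1 library was left out. They ran from 202 to 604 for HF (354 with all libraries) and from 365 to 806 for RT (603). They were 2 of 10 for HF without NT 3, NT 4, HF 1, HF 3 or HF 4, and 3 of 10 for RT without NT 3. No fold change against NT turned positive in any omission of 1 library.

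The fractal and the round surface were compared to ask whether members respond to the fractal form itself. No member passed the edgeR threshold, where 0.211% of all tested genes did (0.079% fell and 0.132% rose), and none had an unadjusted p under 0.05 (8% of all tested genes did). DESeq2 and limma voom also called 0. The lowest edgeR adjusted p was 0.632, for Gbp6, with a difference of 0.27 and a 95% confidence interval from -0.0034 to 0.54 on the log2 scale. For Tgtp1 the difference was 0.11 (95% confidence interval -0.01 to 0.23), for Tgtp2 -0.01 (-0.16 to 0.14) and for Irgm1 0.0011 (-0.08 to 0.09). The intervals for Igtp (-0.11 to 0.34), Irgm2 (-0.07 to 0.21), Iigp1 (-0.13 to 0.38), Gbp2 (-0.23 to 0.14) and Gbp7 (-0.08 to 0.16) also held 0. Gbp3 was the least precise, at 0.06 (-0.28 to 0.40). The members' median was 0.07, with 2 of 10 below 0 against 50.4% of all tested genes. An interval that holds 0 does not show that the surfaces act alike, and differences within these bounds remain compatible with the data.

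The members also varied together among libraries of 1 surface. NT 1 was the lowest NT library for 10 of 10 members, and NT 5 was the highest of all 17 libraries for 8 of 10. The coefficient of variation was highest on NT for 8 of 10 members, with a median over members of 14.7% on NT, 9.51% on RT and 7.39% on HF. Total counts were 16141422 for NT 1 and 16962456 for NT 5, inside the range of the 17 libraries. The TMM scaling factor of NT 5, 1.02, was the highest of the 17, followed by 1.004 for NT 1. The part of depth or scaling in this pattern was not tested. Over the 45 pairs of members, Pearson r across the 17 libraries ran from 0.43 (Irgm2 with Gbp7) to 0.91, with a median of 0.75, and the median Spearman rho was 0.62. With each surface's mean subtracted, the pairs ran from -0.26 to 0.85 with a median of 0.52, and without NT 1 and NT 5 the median over the uncorrected values was 0.68. These correlations are descriptions: all values of a library share its depth and scaling, and Tgtp1 and Tgtp2 share sequence.

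**Figure D4:**
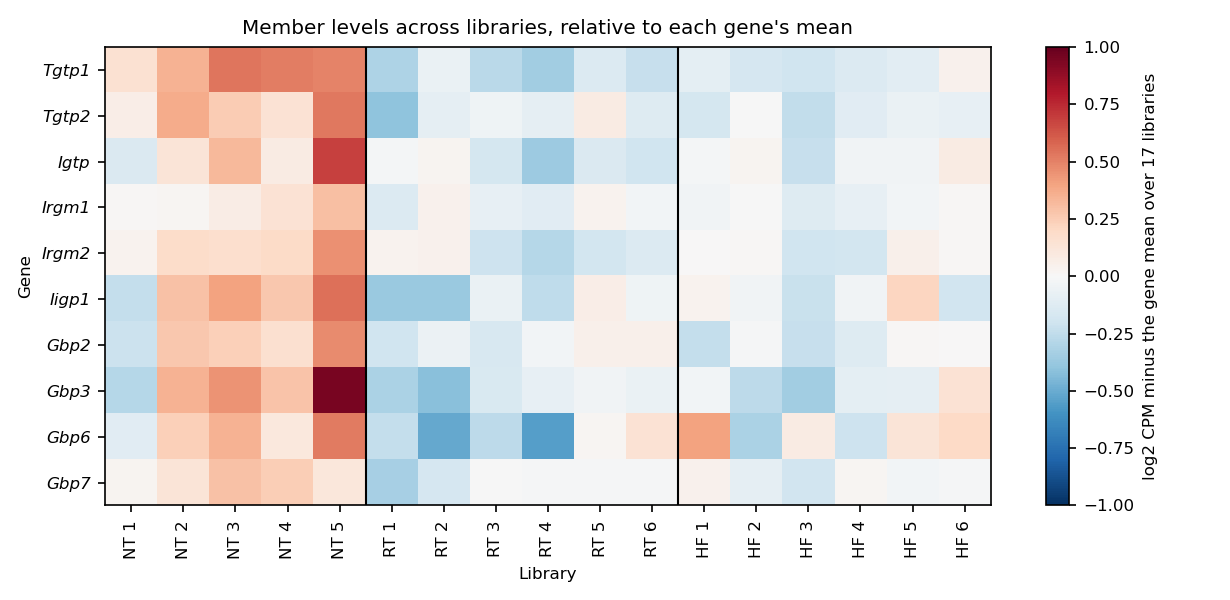
Log2 CPM of each member minus that gene's mean over the 17 libraries, with libraries in columns by surface. The NT 5 column is high for nearly all members, whereas the NT 1 column is close to the textured libraries for Igtp, Iigp1, Gbp2, Gbp3 and Gbp6.

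The genes outside the members whose log2 CPM was most like the members' mean standardised level were taken from 12262 candidates, and 4 of the first 5 are given. They were Sp100, a nuclear body component (Pearson r 0.92 over 17 libraries, Spearman rho 0.86), and the class II antigen gene H2-Eb1 (r 0.91, rho 0.76). Gbp5, another guanylate-binding protein, had r 0.90 and rho 0.80, and Ppp2r5a, a regulatory subunit of protein phosphatase 2A, had r 0.90 and rho 0.78. With surface means subtracted the values were 0.78, 0.81, 0.80 and 0.72 in that order. Without NT 1 and NT 5 they were 0.88, 0.92, 0.85 and 0.86. These are descriptions over libraries that share scaling, with no test.

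The rest of the pathway was followed by lists of its ligands and receptors, other GTPases, targets and effector partners. For comparison with the list counts, 0.829% of all tested genes fell and 1.5% rose on HF against NT. On RT against NT 1.44% fell and 2.53% rose. Fold changes below 0 made up 51% of all tested genes on HF and 50.9% on RT. List counts without 1 library are to be read beside the calls over all tested genes in such fits. Those ran from 202 to 604 on HF and from 365 to 806 on RT. The ligand genes Ifng and Ifnb1 had 0 counts in every library, which allows at most 0.203 CPM in the shallowest one (3 counts; counting error only). The receptor chains were well above that: Ifngr1 averaged 213 ± 9.32 CPM on NT, 198 ± 10.52 on RT and 210 ± 9.40 on HF, and Ifnar1 averaged 137, 141 and 140 CPM. Of 17 tested genes of ligands, receptors and signalling, 1 fell on HF, and 1 rose and 2 fell on RT. The gene that rose was Ifngr2, the second chain of the interferon gamma receptor, from 63.0 ± 3.72 CPM on NT to 73.8 ± 1.62 on RT (log2 0.23 ± 0.04, edgeR adjusted p = 0.00182), with every RT library above every NT library. The Ifngr2 call was made in all 11 fits that left out 1 library. Irf1, a transcription factor that interferon induces, fell on RT by 0.16 ± 0.04 (edgeR adjusted p = 0.0308) and lost the call in 6 of 11 such fits (NT 3 or 4, or RT 1, 3, 4 or 6). Usp18, which restrains type I signalling, fell on HF by 0.57 ± 0.14 (edgeR adjusted p = 0.0218), a call lost without HF 3 or HF 4. The Irf1 and Usp18 calls were lost with only the groups compared in the fit, and that of Irf1 also with no filter. The list medians were -0.07 on HF and -0.09 on RT. Without NT 1 the calls numbered 3 on HF and 5 on RT, and on HF they were 0 without HF 3 or HF 4 and 2 without NT 4, HF 1 or HF 6.

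Of 17 tested other genes of the GTPase families, 2 fell on HF and 6 on RT, none rose, and 16 of 17 were below 0 in both, with medians of -0.30 and -0.46. Gbp9 was the most precise: it fell from 117 ± 14.0 CPM on NT to 93.8 ± 2.83 on HF (log2 -0.32 ± 0.05, edgeR adjusted p = 0.00164) and 94.7 ± 3.76 on RT (log2 -0.30 ± 0.05, edgeR adjusted p = 0.00145). Gm4951, an immunity-related GTPase gene, fell on RT by 0.58 ± 0.12 (edgeR adjusted p = 0.00265), and Gbp5 by 0.58 ± 0.13 (edgeR adjusted p = 0.00536). F830016B08Rik fell on RT by 0.47 ± 0.12 (edgeR adjusted p = 0.0146), a call lost without NT 3 (edgeR adjusted p = 0.104). The second gene that fell on HF was Gvin1, a very large GTPase named after its values were seen, at -0.23 (edgeR adjusted p = 0.0372), a call lost in 7 of 11 fits that left out 1 library (NT 2 or 3, or HF 2, 3, 4, 5 or 6). The Gbp9, Gm4951 and Gbp5 calls were made in all 11 fits. The Gvin1 call on HF was also lost with only the groups compared in the fit. Without NT 1 the calls on HF numbered 6, and without NT 2, NT 3, HF 2, HF 3, HF 4 or HF 5 there was 1. On RT there were 3 without NT 3.

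Of 41 tested type I interferon-stimulated genes, 3 fell on HF and 8 on RT, and none rose. The medians were -0.17 and -0.22, with 36 and 39 of 41 below 0. On RT the calls numbered 15 without NT 1, 5 without NT 3 or RT 1 and 4 without RT 3, and on HF there was 1 without HF 4. Sp100 fell on HF by 0.32 ± 0.07 (edgeR adjusted p = 0.00435) and on RT by 0.33 ± 0.07 (edgeR adjusted p = 0.00182), with all textured libraries below NT. Zbp1, a sensor of Z-form nucleic acid, fell by 0.65 ± 0.16 on HF (edgeR adjusted p = 0.0201; lost without NT 5 or HF 4) and by 0.71 ± 0.16 on RT (edgeR adjusted p = 0.00595). Parp14, a mono-ADP-ribosyltransferase, fell on RT by 0.23 ± 0.05 (edgeR adjusted p = 0.00365), and Ifitm2, a membrane protein that restricts virus entry, by 0.17 ± 0.04 (edgeR adjusted p = 0.0197; lost without NT 3, RT 3 or RT 4). The third gene on HF was Dtx3l, a ubiquitin ligase named after its values were seen, at -0.27 (edgeR adjusted p = 0.0234; lost without NT 2, NT 3, HF 3 or HF 4). The HF calls of Zbp1 and Dtx3l were also lost with only the groups compared in the fit.

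Of 21 tested genes of interferon gamma response and antigen presentation, 1 fell on HF, and 1 rose and 3 fell on RT. H2-Aa, a class II chain, fell from 21.3 ± 5.02 CPM on NT to 10.7 ± 1.53 on RT (log2 -0.98 ± 0.14, edgeR adjusted p = 0.000424) and to 14.5 ± 1.56 on HF (log2 -0.55 ± 0.14, edgeR adjusted p = 0.0404). The HF call was lost in 9 of 11 fits that left out 1 library, all but those without NT 1 or HF 5. H2-Eb1, another class II gene, fell on RT by 0.73 ± 0.16 (edgeR adjusted p = 0.0146). Cd74, the invariant chain, fell on RT by 0.74 ± 0.18 (edgeR adjusted p = 0.0306), a call made in 2 of 11 such fits, those without NT 1 or RT 5. Cxcl10, a chemokine that interferon gamma induces, rose on RT from 1.63 ± 0.37 to 2.59 ± 0.27 CPM (log2 0.67 ± 0.19, edgeR adjusted p = 0.0375), a call made in 3 of 11 such fits, those without NT 2, NT 5 or RT 2. With only the groups compared in the fit, the calls of H2-Aa on HF and of H2-Eb1, Cd74 and Cxcl10 on RT were lost. Those of H2-Aa on HF and Cd74 were also lost with limma voom, and that of Cxcl10 with no filter on low counts. The list medians were -0.12 and -0.11. Without NT 1 the calls numbered 9 on HF and 9 on RT, and without NT 3, NT 4, RT 1, RT 3, RT 4 or RT 6 there were 2 on RT.

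The autophagy conjugation system, which places the GTPases on membranes, and the inflammasome partners of guanylate-binding proteins gave 16 tested genes. None passed on HF in edgeR, DESeq2 or limma voom. There 2 of the 16 had an unadjusted p under 0.05, against 14.2% of all tested genes. On RT 1 gene fell. That gene was Gabarapl1, at -0.13 ± 0.04 (edgeR adjusted p = 0.0384), a call made in 2 of 11 fits that left out 1 library, those without NT 1 or RT 5, and lost with only the groups compared in the fit. The medians were 0.0036 on HF and -0.03 on RT. Between HF and RT 0 genes passed in edgeR, DESeq2 or limma voom in each of these 5 lists. At an unadjusted p under 0.05 there were 1 to 2 per list, against 8% of all tested genes.

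**Figure D5:**
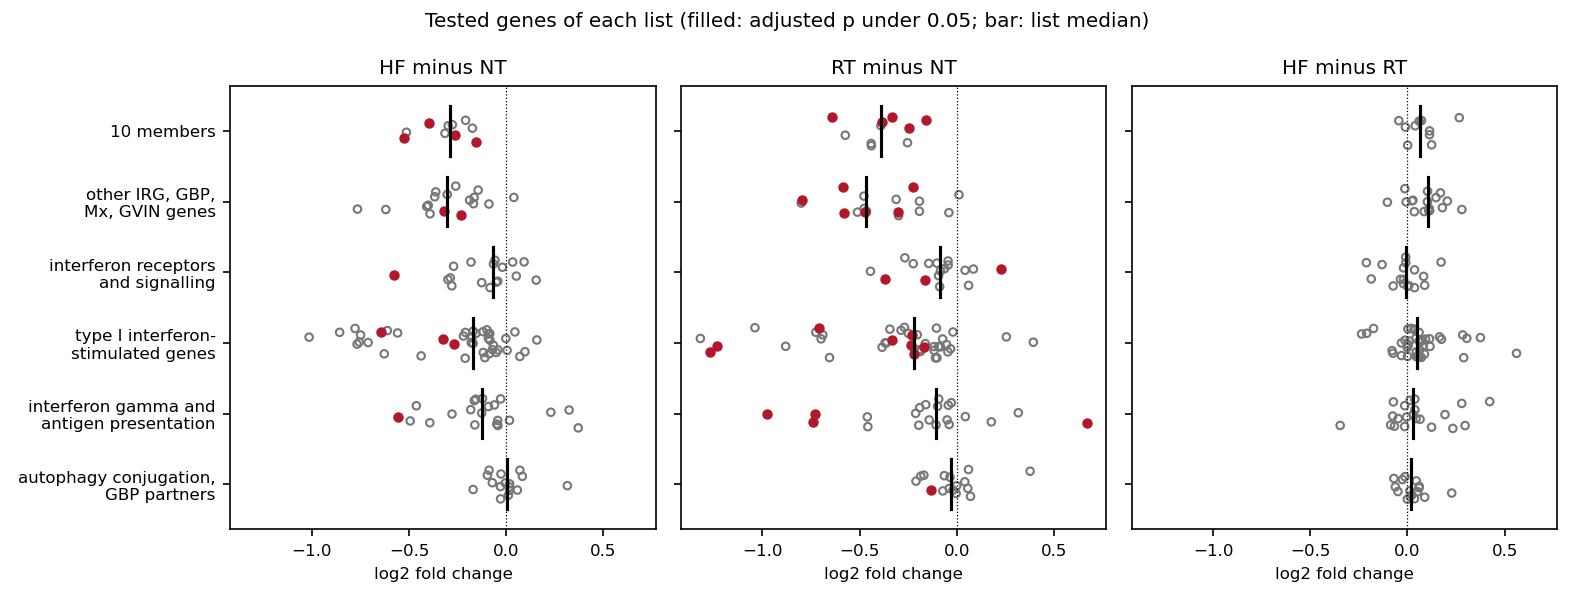
Log2 fold changes of every tested gene in the members and the 5 lists, with a bar at each list's median and filled points for an adjusted p under 0.05. The 10 members (median -0.29 on HF and -0.39 on RT) and the other GTPase genes (-0.30 and -0.46) lie left of 0, while the autophagy list (0.0036 and -0.03) is centred on it.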

How the data were processed

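The deposited table holds raw counts of reads per gene, made by the authors for each of the 17 libraries. Per the submitters' processing notes, CASAVA, HISAT2 2.0.5, featureCounts 1.5.0-p3 and GRCm39 were used. Per the labels' protocols, poly-A RNA gave non-directional paired libraries. Strand setting, treatment of reads with several placements and annotation release are not given in the sources used here. Symbols were added by gene ID from GENCODE M21 on GRCm38 (52073 matched), and upstream sequence came from RefSeq GRCm38.p6.

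Counts were tested with edgeR 4.0.16 (quasi-likelihood, TMM scaling, filterByExpr, 1 mean per surface, all 17 libraries) in R 4.3.3, with Benjamini-Hochberg adjustment over 15196 genes, a two-sided threshold of 0.05 and confidence intervals of 95%. CPM values are TMM-scaled, and log2 CPM used a prior count of 2. The code was tested on simulated data. Alternatives used DESeq2 1.42.0, limma 3.58.1 and other scalings, filters and subsets. The members and lists were chosen with earlier results of these data known. All members are named, with up to 4 called genes of smallest p per list and the 5 genes most like the members among those with a mean log2 CPM of at least 1. A gene that these rules name is not reported here. The labels give no batch.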

Additional observations from a re-analysis of the deposited data

How the results depend on the processing

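All 10 members kept a negative fold change against NT under every alternative tried. Member calls, 4 for HF and 5 for RT, were 7 and 8 with no filter on low counts, 7 and 10 with DESeq2, 3 and 5 with limma voom, 3 and 4 with only the groups compared in the fit, and 3 and 4 of 9 features with Tgtp1 and Tgtp2 summed. Added after seeing the data, leaving out NT 1 and NT 5 together gave 6 and 8, and using only libraries numbered 1 to 5 gave 2 and 5. Leaving out 1 library gave 2 to 9 for HF and 3 to 10 for RT, where calls over all tested genes ran from 202 to 604 and from 365 to 806. With a replicate block the counts were 6 and 9. The members added on HF were Igtp, Gbp2 and Gbp7 with no filter, Gbp2, Gbp3 and Gbp7 with DESeq2, and Gbp2 and Gbp7 with the block. On RT they were Igtp, Gbp2 and Gbp6 with no filter, all that had not passed with DESeq2, and all of those but Igtp with the block. No source says that a number is shared between surfaces, and the reported fit has no block. Same-number correlations ran from -0.0111 to 0.19 over 16 pairs, 2 of them above 0.1. Pairs with different numbers ran from -0.13 (NT 5 with RT 1) to 0.061 (NT 2 with HF 3). In all, 8 of 17 libraries correlated best with their own number, and the count expected without pairing was not worked out. Whether equal numbers are paired was not tested. Between HF and RT 0 members were called in all settings run. Signs there turned near 0: Tgtp2 was 0.0634 when summed with Tgtp1, Irgm1 was -0.0048 with libraries numbered 1 to 5, and leaving out 1 library gave -0.0607 to 0.0315 for Tgtp2, -0.0158 to 0.0188 for Irgm1 and -0.0026 to 0.0686 for Gbp7. Calls over all tested genes for HF against NT, RT against NT and HF against RT were 354, 603 and 32 in the reported fit, 564, 835 and 84 with DESeq2, 637, 995 and 125 with the replicate block, 597, 822 and 148 with no filter, and 200, 510 and 113 with only the groups compared. Among 32 calls between HF and RT 37.5% had fallen, against 50.7% with no filter and 54.0% with only the groups compared. For antigen presentation, 1 gene passed between HF and RT with no filter and with only the groups compared. The cause of these shifts was not tested. Low depth limits Gbp6 most, with 80 to 189 counts per library.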

Other observations

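The share of Tgtp1 in the summed counts of Tgtp1 and Tgtp2, a measure chosen after the values were seen, was 62.45% ± 2.89 (SD, n = 5; 59.8% to 66.1%) on NT, 58.35% ± 2.42 (n = 6; 55.95% to 61.8%) on RT and 60.3% ± 1.68 (n = 6; 57.5% to 62.2%) on HF. RT was lower than NT by 4.1 percentage points in an exact two-sided permutation test (p = 0.0433), which did not pass after Benjamini-Hochberg adjustment over the 3 comparisons (adjusted p = 0.13 from the exact test). For HF against NT the exact permutation p was 0.1645, and for HF against RT it was 0.134. Because the copies share most of their sequence, this share depends on how reads with several placements were counted, which is not given in the sources used here.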
